A study of Drosophila melanogaster with 12 samples.

Results

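Mitochondrial fatty acid oxidation was followed through 10 enzyme genes of the fruit fly, chosen by name along the pathway from the carnitine shuttle to electron transfer, among the 16191 loci of the oenocyte translatome. All 10 genes (whd, CPT2, Mcad, Arc42, Mtpalpha, Mtpbeta, scu, yip2, wal and Etf-QO) were found through their RefSeq transcripts, each was the only annotated gene named at its locus, and each had an FPKM (a fragment count scaled by transcript length and by library size) above 0.01 in every group. Oenocytes are abdominal cells with liver-like functions in lipid metabolism. RNA was pulled down on the FLAG-tagged ribosomal protein RpL13A, which the PromE-Gal4 driver expressed in oenocytes of mated females, so every group carried the driver and UAS-RpL13A-FLAG. The 12 libraries fall into 4 groups of 3, each library from pooled whole females. H2O-Young flies were labelled 14 days old and given water, PQ-Young flies were of that age and given 10 mM paraquat for 24 h, H2O-Aged flies were labelled 28 days old and given water, and PQ-Aged flies were of that age and given the same paraquat dose. The study's methods state somewhat different ages. Paraquat is a herbicide that generates superoxide in cells.

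In this pathway, fatty acids are activated to acyl-CoA, carried into the mitochondrion as carnitine esters and then shortened in repeated rounds of dehydrogenation, hydration, a second oxidation and thiolytic cleavage. Each round releases acetyl-CoA. Electrons from the first dehydrogenation pass through the electron transfer flavoprotein to ubiquinone, and larval oenocytes of the fly are known for taking up and processing lipid during starvation.

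The data gave 1 FPKM per gene and group, in which the authors had pooled 3 libraries, and no value per library. Spread between replicates, standard errors and tests could therefore not be computed, and each difference below is a ratio between pooled group values with no replicate check. In the paper's principal component analysis, 1 H2O-Young library did not cluster with its group. Its weight in the pooled H2O-Young values cannot be told. FPKM is scaled by transcript length, so levels can be set side by side between genes. The depth behind each value is unknown.

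With age on water, from H2O-Young to H2O-Aged, 9 of the 10 enzyme genes had a lower FPKM in aged oenocytes and 1, whd, had a higher one, while 55.7% of all protein-coding loci above 0 in both groups were lower. At a ratio of at least 2, 5 genes were lower (Arc42, Mtpbeta, scu, wal and Etf-QO) and whd was higher. The same ratio was passed downward by 25.9% and upward by 17.6% of 11940 protein-coding loci. The median log2 ratio of the 10 genes was -1.04, beside -0.17 over all loci above 0 in both groups. Between PQ-Young and PQ-Aged, 2 genes (scu and wal) were at least 2-fold lower and 0 were higher, against 17% of all loci lower and 12.6% higher. This count depended on the scaling of the groups: quantile normalization left 0 genes past 2-fold, and scaling to the glycolytic gene Gapdh1 left 0 lower and put 2 higher (whd at a log2 ratio of 1.28 and yip2 at 1.14). Under the Gapdh1 scaling 5548 of 12001 loci were at least 2-fold higher and 759 lower. Under quantile normalization 1660 were higher and 1745 lower. Paraquat in young flies left 1 gene, Arc42, at least 2-fold lower and 0 higher, against 13.6% and 8.63% of loci. In aged flies 0 genes passed in either direction, against 7.47% lower and 8.57% higher. All 10 genes were above 10 FPKM in every group, and with a floor of 10 FPKM the share of loci past 2-fold in either direction was 1.26% for paraquat in aged flies, 8.05% for paraquat in young flies and 17.3% for age on paraquat, so the count of 0 in aged flies stood close to this background. The median log2 ratio of the 10 genes was -0.81 for age on paraquat, -0.53 for paraquat in young flies and -0.03 for paraquat in aged flies. Comparisons that use the same group share its libraries, H2O-Young in age on water and paraquat in young for example, and are not independent of each other.

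**Figure D1:**
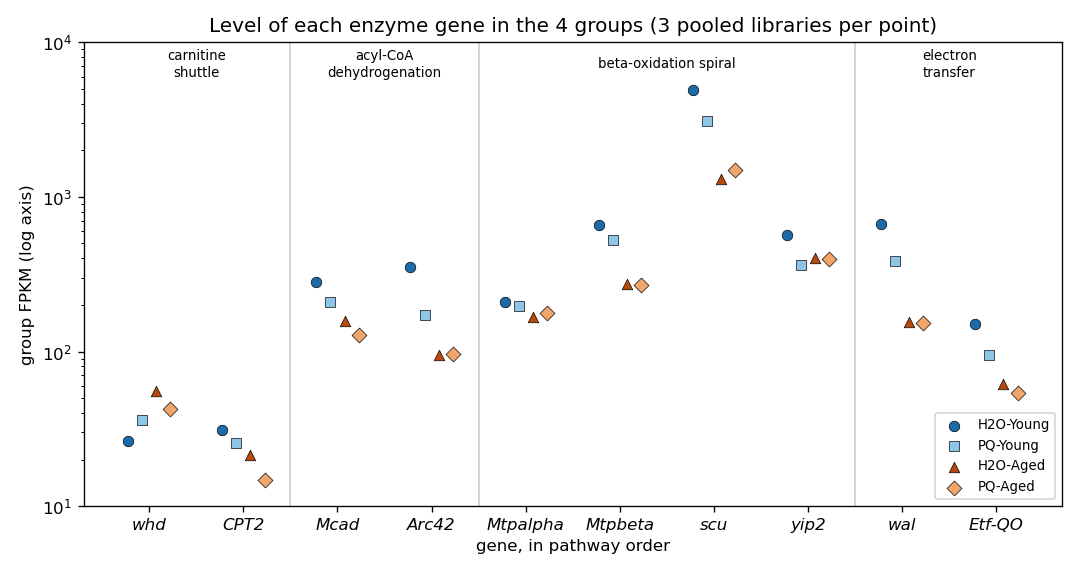
Group FPKM of the 10 enzyme genes in pathway order, on a log axis, with 1 point for each group of 3 pooled libraries and no error bars because no value per library was given. The 2 carnitine palmitoyltransferase genes sit below 60 FPKM in every group, scu sits above 1300 in every group, and whd is the gene whose H2O-Aged point is the highest of its 4.

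The carnitine palmitoyltransferase genes whd and CPT2 had the lowest levels of the 10, and whd was the single gene with a higher level in aged oenocytes on water. The gene whd (withered) encodes carnitine palmitoyltransferase 1, the outer-membrane enzyme that commits long-chain acyl groups to the mitochondrion. Its FPKM was 26.2 on water and 35.9 on paraquat in young flies, and 55.9 and 42.8 in aged flies, so both aged groups were above both young groups. It was 2.13-fold higher with age on water, a log2 ratio of 1.09 that lay above those of 88.2% of the protein-coding loci. This is opposite to the paper, which gives whd as an example of fatty acid metabolism genes lower with age in both tissues, liver and oenocytes. The reason for the difference was not tested. With age on paraquat the log2 ratio was 0.25. Paraquat went with a higher level in young flies (log2 ratio 0.45) and a lower one in aged flies (-0.39). CPT2, the inner-membrane enzyme that returns the acyl group to CoA, had FPKM values of 31.3, 25.6, 21.3 and 14.7 in the same order of groups. It was lower with age on water (-0.56) and on paraquat (-0.80) without passing the 2-fold ratio. The level of CPT2 relative to whd was accordingly 1.19 in young flies on water, 0.715 with paraquat, and 0.381 and 0.344 in aged flies on water and on paraquat. The colt gene, which encodes the carrier that moves acylcarnitine across the inner membrane between these enzymes, had FPKM values of 249, 173, 83.3 and 92.1, with a log2 age ratio on water of -1.58. The shuttle genes thus did not share a direction.

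The annotation puts 2 genes on the strand opposite to whd that overlap it, and whether counting used the strand of these directional libraries is not given in the sources used here. Of these, asRNA:CR45134 stayed below 0.4 FPKM in every group, and CG11777 had 88.5 in young and 79.9 in aged flies on water. With age on water their log2 ratios were 2.48 and -0.15, and with paraquat CG11777 had 79.6 in young and 95.0 in aged flies. The part of reads from these genes in the whd values was not tested.

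Acyl-CoA dehydrogenation, the first oxidation of each round, was represented by Mcad and Arc42, and both were lower in aged oenocytes. Mcad, the medium-chain acyl-CoA dehydrogenase, had an FPKM of 280 and 208 in young flies (water, then paraquat) against 158 and 127 in aged flies. Each step down this order was a lower value, and the log2 age ratio was -0.83 on water and -0.71 on paraquat. Arc42, annotated as a short-chain acyl-CoA dehydrogenase, had an FPKM of 351 on water and 173 on paraquat in young flies, and 95.1 and 96.7 in aged flies. Its H2O-Young value stood above the other groups, by 2.02-fold over PQ-Young and by 3.69-fold over H2O-Aged. The aged groups differed by a log2 ratio of only 0.02. Arc42 was the higher of the pair in H2O-Young and Mcad was the higher in the other 3 groups, with a Mcad to Arc42 ratio of 0.798, 1.20, 1.66 and 1.32. The assembled locus of Mcad spans 108576 bp and takes in 10 other annotated genes, while the gene itself covers 2123 bp, so its value is less certain than the others.

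The genes of the beta-oxidation spiral, which hydrate, oxidise and cleave the acyl chain, spanned the widest range of levels, from Mtpalpha to scu. Mtpalpha and Mtpbeta encode the subunits of the mitochondrial trifunctional protein: the alpha subunit carries the hydratase and hydroxyacyl-CoA dehydrogenase activities for long chains, and the beta subunit the thiolase. Mtpalpha had an FPKM of 209 in young flies on water, 197 with paraquat, and 167 and 178 in aged flies on water and on paraquat. These 4 values were the closest together among the 10 genes, and the log2 age ratio on water was -0.33. Mtpbeta had an FPKM of 654, 527, 275 and 270 in the same order, which placed both aged groups well below both young groups. It was 2.38-fold lower with age on water and 1.95-fold lower with age on paraquat, and its paraquat ratios were small (log2 -0.31 in young and -0.02 in aged). The log2 age ratio of Mtpbeta on water moved from -1.25 to -0.27 under quantile normalization and to -0.88 scaled to Gapdh1. On paraquat it moved from -0.96 to -0.37 and to 0.06. The level of Mtpbeta per Mtpalpha, whose proteins assemble together, was 3.12 and 2.67 in young flies (water, then paraquat) against 1.64 and 1.52 in aged flies. The gene CG5569 overlaps Mtpbeta on the opposite strand and had an FPKM of 263 in young and 115 in aged flies on water, a log2 ratio of -1.19 close to the -1.25 of Mtpbeta. Reads of these genes where they overlap cannot be told apart if counting ignored strand.

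The scu gene (scully) encodes a hydroxyacyl-CoA dehydrogenase that in mammals is also a subunit of mitochondrial ribonuclease P, and it was by far the most abundant of the 10. Its FPKM was 4950 on water and 3110 on paraquat in young flies, and 1316 and 1485 in aged flies. Young oenocytes were above aged oenocytes under both treatments, by 3.76-fold on water and 2.09-fold on paraquat. Its log2 age ratio on water moved from -1.91 to -0.64 under quantile normalization and to -1.54 scaled to Gapdh1, and on paraquat it moved from -1.07 to -0.05 and -0.04, so the difference on paraquat was lost under both. Of the summed FPKM of the 10 genes it made up 62.8% (water) and 60.7% (paraquat) in young flies, against 48.6% and 52.7% in aged flies. The gene yip2 encodes a thiolase related to mammalian acetyl-CoA acyltransferase, the enzyme of the last cleavage. Its FPKM was 569 in young flies on water, 364 with paraquat, and 400.0 and 396 in aged flies on water and on paraquat. It was the gene with its lowest value in PQ-Young, and apart from H2O-Young its groups lay close together. Its log2 age ratio was -0.51 on water and 0.12 on paraquat.

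Electron transfer, which takes electrons from the acyl-CoA dehydrogenases, held the gene with the largest age ratio of the 10. The wal gene (walrus) encodes the alpha subunit of the electron transfer flavoprotein. Its FPKM was 664 and 383 in young flies (water, then paraquat) against 156 and 153 in aged flies. The age ratio was 4.26-fold downward on water (log2 -2.09, with 7.34% of protein-coding loci lower still) and 2.51-fold downward on paraquat. Etf-QO, the inner-membrane oxidoreductase that passes these electrons to ubiquinone, had an FPKM of 151, 95.4, 61.6 and 54.3 in the same order. Its log2 age ratio was -1.30 on water and -0.81 on paraquat. Both genes had the same order of groups, from H2O-Young down to PQ-Aged. The beta subunit gene CG7834 (Etfb) had an FPKM of 677, 603, 351 and 320, with an age ratio on water of -0.95 that turned to 0.10 under quantile normalization. The level of wal relative to it was 0.982 on water and 0.634 on paraquat in young flies, and 0.445 and 0.477 in aged flies. The subunit genes of the flavoprotein therefore stood at near equal levels in H2O-Young and apart in the other groups.

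**Figure D2:**
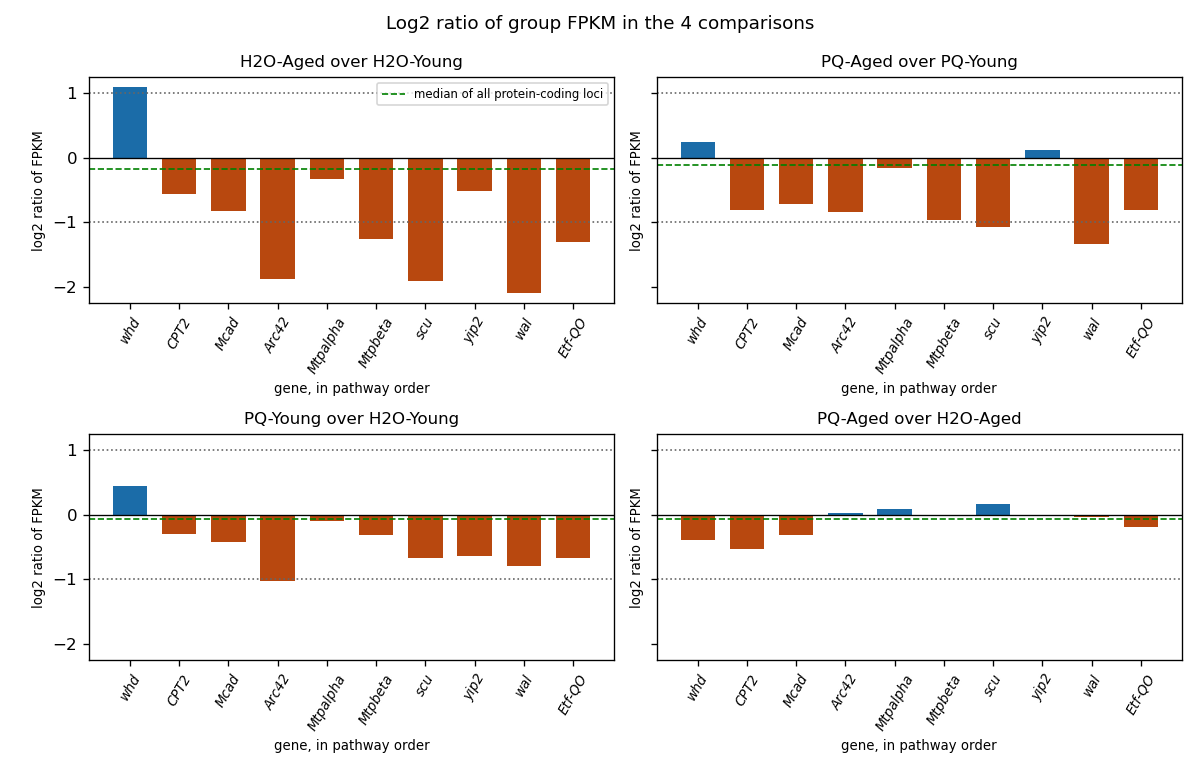
Log2 ratio of group FPKM for each enzyme gene in the 4 comparisons (bars, orange below 0 and blue above), with dotted lines at 2-fold and a dashed green line at the median of all protein-coding loci. With age on water 5 bars reach below the lower dotted line and whd reaches above the upper one, while for paraquat in aged oenocytes the bars run from -0.53 (CPT2) to 0.17 (scu).

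Summed by step, the FPKM of the dehydrogenases was 630 in young and 253 in aged flies on water, that of the spiral 6382 and 2158, and that of electron transfer 816 and 218. These are 2.49-fold, 2.96-fold and 3.75-fold lower sums with age on water. The spiral sum rested on scu, without which it was 1432 and 842, a 1.70-fold difference. The carnitine palmitoyltransferases summed to 57.5 and 77.2, the only step with a higher sum in H2O-Aged. This higher sum came from whd, as CPT2 was lower, and it leaves out colt, which was lower too. On paraquat the 2 genes summed to 61.5 in young and 57.5 in aged flies. All 10 genes together were 2.91-fold lower, and 2.11-fold lower when scu was left out. On paraquat the sum over all 10 genes was 1.82-fold lower in aged oenocytes.

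As deposited, the order of the groups was shared by most of the genes. H2O-Young was the highest group for 9 genes, and both young groups stood above both aged groups for 8. Over 10720 protein-coding loci above 0 in every group, 41.7% had their highest value in H2O-Young and 38.8% had both young groups above both aged groups, and among loci with a geometric mean FPKM from 100 to 1000 these shares were 63.3% and 66.6%. CPT2, Mcad, Mtpbeta, wal and Etf-QO stood in the order young on water, young on paraquat, aged on water and aged on paraquat from high to low, and Arc42, Mtpalpha and scu differed from them only in the order of the aged groups. The pooled values used here do not show whether neighbours in these orders differ beyond replicate spread, and a library of H2O-Young lay apart from its group in the paper. The orders also depended on scaling. Scaled to Gapdh1, both young groups stood above both aged groups only for scu and wal. Under quantile normalization Mcad (196 in PQ-Young, 198 in H2O-Aged) and Mtpalpha lost this order. H2O-Young was then no longer the highest for Mtpalpha, Mtpbeta and yip2. The paraquat log2 ratio in aged flies exceeded that in young flies for 8 genes, and for 50.0% of 10720 protein-coding loci. The median difference was 0.39 over the 10 genes, beside 0.00 over those loci. For whd and CPT2 the paraquat ratio was lower in aged flies. Among loci with a geometric mean FPKM from 100 to 1000 the median paraquat ratio was -0.25 in young and -0.04 in aged flies. The difference between the ages was not tested.

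**Figure D3:**
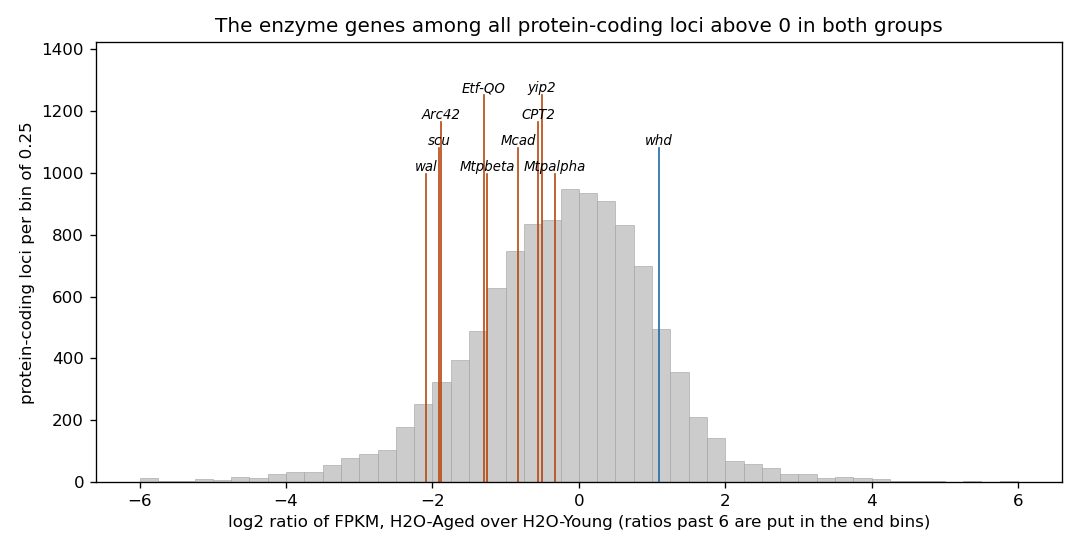
Histogram of the log2 ratio of H2O-Aged over H2O-Young for protein-coding loci above 0 in both groups, with a vertical line at the value of each of the 10 enzyme genes. The 5 genes past 2-fold downward lie between -2.09 (wal) and -1.25 (Mtpbeta), in the lower flank of the histogram, and whd lies at 1.09 in the upper flank.

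Abundant loci as a whole had lower age ratios, and most of these enzyme genes are abundant. Among loci with a geometric mean FPKM over the 4 groups from 100 to 1000, a class chosen after the values were seen that holds Mcad, Arc42, Mtpalpha, Mtpbeta, yip2 and wal, 40.4% were at least 2-fold lower with age on water and the median log2 ratio was -0.75. Of the 6 enzyme genes in it, Arc42, Mtpbeta and wal passed. From 1000 upward, the class of scu, the share was 58.4%. From 10 to 100, the class of whd, CPT2 and Etf-QO, 14.7% were 2-fold lower and 11.3% were 2-fold higher. Set against loci of like level, the count of enzyme genes lower in H2O-Aged stood nearer to the background than against all loci.

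The direction of some genes depended on how the groups were scaled. Under quantile normalization, which forces the groups to 1 distribution of values, 2 genes stayed at least 2-fold lower with age on water (Arc42 and wal, log2 -1.18 and -1.19), whd remained higher at 1.20, and Mtpalpha and yip2 turned to 0.40 and 0.54. Scaled to Gapdh1, Mtpalpha turned to 0.04 with age on water and the other directions stood. Gapdh1 served the study as a reference gene in PCR. Here it had an FPKM of 846 in young flies on water, 907 with paraquat, and 654 and 447 in aged flies on water and on paraquat. Under quantile normalization Mtpalpha also turned to 0.34 with age on paraquat, and Mtpalpha and Mtpbeta to 0.21 and 0.14 with paraquat in young flies. For paraquat in aged flies 7 genes were below 0 as deposited, as were 55.7% of all protein-coding loci above 0 in both groups. After scaling by the median ratio 4 genes were below 0, and after quantile normalization 5. With age on paraquat the Gapdh1 scaling left only scu and wal below 0, and for paraquat in aged flies it left 0 genes below 0. It moved the median log2 ratio of all loci to 0.21, 0.91, -0.16 and 0.49 in the 4 comparisons. The downward share of loci past 2-fold was 59.6%, 57.5%, 61.2% and 46.6% as deposited and 40.8%, 12.0%, 65.6% and 22.6% after it. Quantile normalization put the downward share for age on water at 50.03%.

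**Figure D4:**
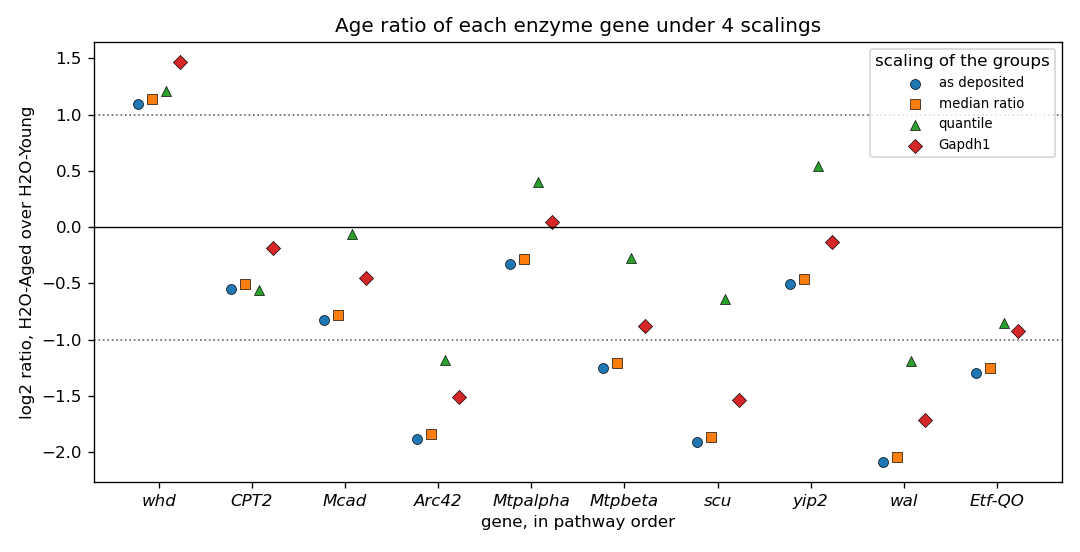
Log2 ratio of H2O-Aged over H2O-Young for each enzyme gene with the groups as deposited, scaled by the median ratio over loci, quantile normalized and scaled to Gapdh1. Arc42 and wal stay below -1 and whd above 1 under all 4 scalings, whereas Mtpalpha lies above 0 under quantile normalization and Gapdh1 scaling, and yip2 above 0 under quantile normalization.

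A list of 15 other genes of mitochondrial fatty acid oxidation, held at 14 loci, was counted in the same way. With age on water 6 loci were at least 2-fold lower and 1 was higher, against 25.9% and 17.6% of all loci, and the median log2 ratio was -0.95. Quantile normalization left 3 lower and 1 higher with a median of -0.57, and Gapdh1 scaling left 3 and 1 with -0.58. The widest ratio was that of CG4592, a predicted enoyl-CoA isomerase, which had an FPKM of 930 and 460 in young flies (water, then paraquat) against 74.9 and 66.1 in aged flies (log2 -3.63 with age on water). It lies in a run of related genes on chromosome 2L next to yip2, in the order yip2, CG4598, CG4594 and CG4592. CG4598 and CG4594 share 1 locus and 1 value, which cannot be split between them, at 318, 211, 133 and 120. Their log2 age ratio on water was -1.26, while yip2, 1397 bp before CG4598, had -0.51. Acat1 (CG10932), an acetoacetyl-CoA thiolase that also serves ketone body metabolism, had 235 in young and 97.2 in aged flies on water. Egm, of the acyl-CoA dehydrogenase family, had 68.0 and 28.6, and Had2, a predicted hydroxyacyl-CoA dehydrogenase of low level, had 9.30 and 3.54. Acadvl (CG7461), the very-long-chain dehydrogenase, had 84.5, 57.4, 45.3 and 24.8, and it passed 2-fold only with age on paraquat (log2 -1.21). The 1 locus that was higher was bgm (bubblegum), a long-chain acyl-CoA synthetase, at 36.3 on water and 47.6 on paraquat in young flies, and 73.9 and 80.5 in aged flies. Its locus also holds asRNA:CR44849. The age ratio of bgm on water was above 1 under all 4 scalings (1.02 to 1.39), and that of CG4592 was below -2.8 under all 4.

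Among 6 regulators of the pathway, 2 were at least 2-fold lower with age on water and 0 higher, against 25.9% and 17.6% of all loci. ERR, the estrogen-related receptor that controls energy metabolism in the fly, had an FPKM of 506 in young flies on water, 310.04 with paraquat, and 125 and 136 in aged flies on water and on paraquat. ACC, acetyl-CoA carboxylase, whose product malonyl-CoA inhibits carnitine palmitoyltransferase 1, had 323, 223, 128 and 105. Both aged groups were thus lower than both young groups in ACC and higher than them in whd. ERR stayed below -1 under all 4 scalings (-2.02 to -1.24), while ACC moved to -0.97 scaled to Gapdh1 and to -0.61 under quantile normalization. Hnf4, a nuclear receptor needed for lipid breakdown in the fly, had log2 age ratios of -0.82 on water and -0.94 on paraquat. The coactivator srl (spargel), the fly relative of PGC-1, had an FPKM of 8.39 in young and 15.7 in aged flies on water (log2 0.90). Sirt4, a mitochondrial sirtuin, and AMPKalpha, the catalytic subunit of the energy-sensing kinase, had log2 age ratios of -0.48 and -0.41 on water.

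Neighbouring pathways were read for comparison, beside the 25.9% of all protein-coding loci at least 2-fold lower with age on water and the 17.6% higher. Of 13 genes of peroxisomal beta-oxidation, which shortens very long chains outside the mitochondrion, 4 were at least 2-fold lower with age on water and 0 higher, with a median log2 ratio of -0.04. Of 16 enzyme genes of the TCA cycle, which burns the acetyl-CoA released, 3 were lower and 0 higher, with a median of -0.27. These medians turned to 0.32 and 0.31 under quantile normalization and to 0.33 and 0.10 scaled to Gapdh1. Whether the medians of these lists differ from that of the 10 enzyme genes was not tested.

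**Figure D5:**
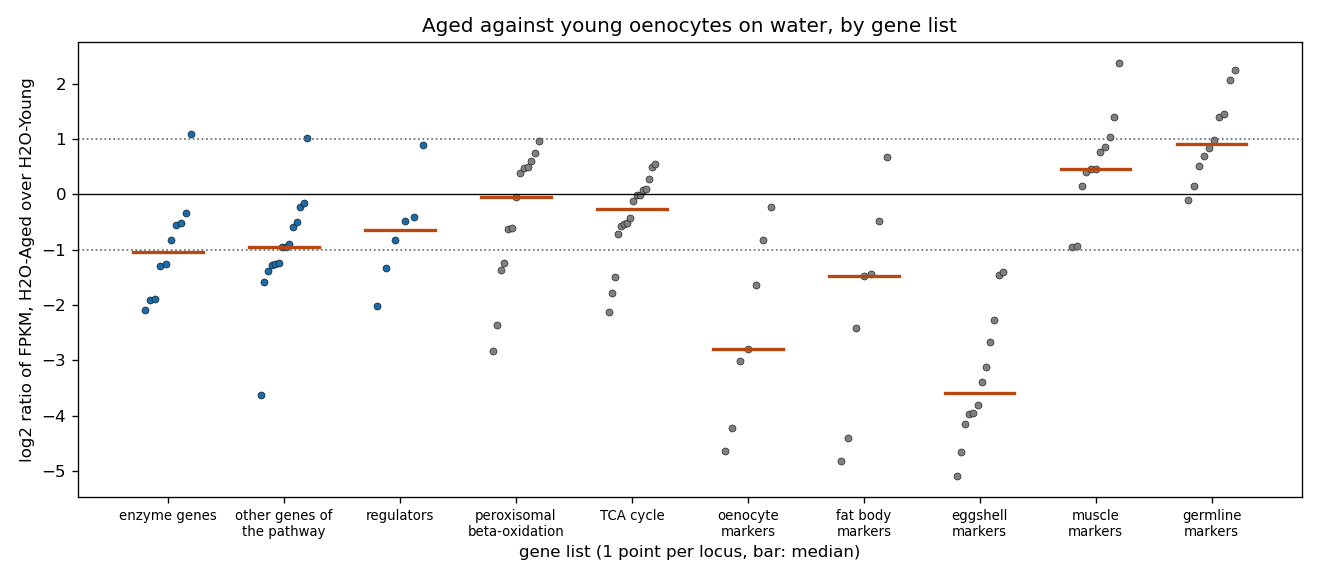
Log2 ratio of H2O-Aged over H2O-Young for every locus of 10 gene lists, with an orange bar at each list's median and dotted lines at 2-fold. The enzyme genes and the other genes of the pathway centre at -1.04 and -0.95, the TCA cycle and peroxisomal lists at -0.27 and -0.04, the oenocyte and eggshell markers at -2.80 and -3.60, and the muscle and germline markers above 0.

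Markers of several cell types differed between the same groups, where 25.9% of all loci were at least 2-fold lower with age on water and 17.6% higher. Of 8 oenocyte markers 7 had usable values, all above 0, and their summed FPKM was 18703 and 9865 in young flies (water, then paraquat) against 3147 and 3024 in aged flies, with 5 of 7 at least 2-fold lower with age on water. Hnf4 is in this list too, and Cyp4g1, the most typical of these markers, was marked by the authors' software as holding too many fragments and is listed at 0, with no usable value. In bulk samples such as these, fewer cells of a type and less RNA per cell cannot be told apart. All 12 eggshell markers were at least 2-fold lower with age on water, with sums of 16920, 3730, 2121 and 2242, and the fat body markers, mainly yolk protein genes, summed to 21478, 7813, 2171 and 1108. Of the 7 fat body markers with a ratio for age on water, 5 were at least 2-fold lower, while Lsd-1 was higher (log2 0.69). Of all 8, 2 stayed below 1 FPKM in every group. Midgut markers summed to 8534, 4698, 2032 and 2717. Muscle markers summed to 367, 575, 654 and 858, with 3 of 11 at least 2-fold higher with age on water and 0 lower. Act57B, an actin gene, carried this sum at 62.6, 203, 325 and 551, and the other 10 muscle markers summed to 305, 371, 329 and 308. With age on paraquat 7 of the 11 were below 0, with a median log2 ratio of -0.30. Germline markers summed to 904, 1118, 1572 and 1604, with 4 of 10 higher and 0 lower. The germline, muscle and hemocyte sums were each higher in both aged groups than in both young groups, as was whd. The muscle sum was so only with Act57B. The hemocyte sum was mostly crq (38.1, 29.0, 41.4 and 50.3) and Pxn (6.08, 4.68, 15.6 and 15.9). Of the 5 hemocyte markers, 3 stayed below 1 FPKM in every group and 2 were lower with age on water. Neuron markers summed to 31.8, 30.0, 14.1 and 20.6, with 5 of 7 at least 2-fold lower with age on water and a median log2 ratio of -1.19. Hemocyte markers summed to 35.5 to 67.5, with 1 of 5 lower and 1 higher. Of the markers with usable values, none was at 0 in all groups. RpL13A, the gene of the tagged protein, had an FPKM of 8001, 7306, 3849 and 3171. The part of these differences in the ratios of the enzyme genes was not tested.

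The patterns of whd and Mtpalpha were also set against other loci of a single coding gene with an FPKM of at least 10 in some group, 6049 for each, by the root mean square difference of log2 FPKM centred over the 4 groups. The 5 nearest to whd were CG12155, AP-2mu, Cortactin, aux and coro, at 0.0079 to 0.024. AP-2mu, for example, had an FPKM of 10.1 on water and 14.0 on paraquat in young flies, and 22.2 and 16.6 in aged flies. The nearest of the other enzyme genes to whd was Mtpalpha, at 0.522. The 5 nearest to Mtpalpha were CG15445, Ae2, eIF3e, CG9215 and CG13204, at 0.010 to 0.020, and its nearest enzyme gene was yip2 at 0.201. The likeness rests on 4 points per gene and is a description only. The 5 nearest were picked from 6049 loci for their closeness, so their distances give no scale for those of the enzyme genes.

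In the dm6 build, Mtpalpha (chromosome 2L, 9573563 to 9576769) and yip2 (2L, 9915253 to 9917220) lie on the same arm, CPT2 (2981022 to 2983551) and Mcad (7719350 to 7721472) on 3L, Arc42 on 3R (19877737 to 19879309) and scu on X (18091259 to 18092853). The remaining genes lie on 2R, Etf-QO at 9910893 to 9913488, whd at 10469473 to 10478567, wal at 11688569 to 11690863 and Mtpbeta at 23866648 to 23868603. The annotation gives whd 4 transcripts with 2 coding forms, which share 1 FPKM here, and CPT2, Mcad, Arc42, Mtpbeta and yip2 a single transcript each.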

How the data were processed

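RNA bound to FLAG-tagged ribosomes of female oenocytes was sequenced in 12 libraries, 3 for each of 4 groups, which were taken from the sample labels. The authors aligned the reads to the dm6 build with TopHat2, assembled and merged transcripts with Cufflinks and compared the groups with Cuffdiff. The deposited FPKM values are 1 per locus and group for 16191 loci in 6 pairs of groups, and they pool 3 libraries and carry no depth or spread per library. The table also holds the authors' fold changes, test statistics, p-values, q-values and calls, none of which was used.

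Loci were named by matching RefSeq identifiers to the RefSeq gene table of the same assembly. Log2 ratios were recomputed from group FPKM with no pseudocount in Python 3.11.15 (pandas 2.3.3, numpy 2.4.6), on 13246 protein-coding loci after 53 marked as holding too many fragments were left out. A locus counted as past the fold at a ratio of at least 2 where 1 of the groups had an FPKM of at least 0.01. A locus at 0 in 1 group passed by its direction and was left out of medians. The calculation was checked on simulated data. No test, error or interval was possible. Alternatives were another scaling (median ratio, quantile, Gapdh1), a pseudocount of 1, an FPKM floor of 10 and a fold of 1.5.

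Genes named are the 10 enzyme genes, colt, CG7461 and CG7834, up to 8 other genes of the pathway past 2-fold with age, 6 regulators, RpL13A and the 5 loci nearest in pattern to whd and to Mtpalpha. Gapdh1, Act57B, crq, Pxn, Lsd-1 and the genes that overlap an enzyme gene were added after their values were seen. The members and lists were chosen with earlier results of these data known.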

Additional observations from a re-analysis of the deposited data

How the results depend on the processing

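No paired analysis was possible because the table gives 1 pooled value per group. For the same reason no library could be left out, also not the H2O-Young library that lay apart from its group in the paper. Depth per library is unknown, so the precision of low values cannot be stated, and the lowest levels here are those of CPT2 and whd. Under quantile normalization 3, 0 and 0 enzyme genes passed 2-fold for age on water, age on paraquat and paraquat in young, with median log2 ratios of -0.42, -0.34 and -0.26. Of all loci, 2391 of 11940, 1745 of 12001 and 1338 of 11849 were then at least 2-fold lower. Those at least 2-fold higher were 2388, 1660 and 1147. Scaled to Gapdh1 the medians of the enzyme genes were -0.67, 0.22, -0.64 and 0.52 for age on water, age on paraquat, paraquat in young and paraquat in aged. Scaled by the median ratio, 1 gene passed for age on paraquat and the median was -0.70. At a fold of 1.5, 7 genes passed for age on paraquat and 5 for paraquat in young. No share of all loci past 1.5-fold is given, so these counts cannot be set against a background. An FPKM floor of 10 put the share of loci past 2-fold in either direction at 17.3% for age on paraquat, 8.05% for paraquat in young and 1.26% for paraquat in aged. A geometric mean from 100 to 1000, chosen after seeing the data, put it at 9.88% for paraquat in young and 0.979% for paraquat in aged. A pseudocount of 1 moved none of the 40 ratios of single enzyme genes by over 0.1 (log2), quantile normalization moved 26 and Gapdh1 scaling 40. The cause of these shifts was not tested.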
